A study of Collinsia rattanii with 18 samples.

Results

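The last step of bud development in *Collinsia linearis*, the predominantly outcrossing member of a sister species pair, was examined by comparing floral buds at stage B3 (late pre-anthesis) with buds at stage B2 (middle). The comparison used 6 of the 18 RNA-seq libraries of the series, 1 library per plant and stage from 3 plants. Buds at B3 and at B2 came from the same plants, so the libraries are paired by plant. The other 12 libraries, from *C. linearis* at stage B1 (early) and from the selfing sister species *C. rattanii* at B1, B2 and B3, entered the same model and are described only where the late step of *C. linearis* is set against them. No treatment or mutation was involved. The stages were set by organ color and size, each library pools several whole buds, and the *C. linearis* plants came from a pair of wild populations. Reads of both species were aligned to the *C. rattanii* genome, so *C. linearis* transcripts that differ from it may be undercounted at both stages.

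Petals, stamen filaments and the style enlarge in large part by cell expansion, which in plants depends on loosening of cell walls, including cutting and rejoining of the hemicellulose xyloglucan. Pollen walls are laid down earlier, when the tapetum, the inner layer of the anther wall, secretes sporopollenin precursors for the exine, and later the tapetum breaks down while pollen matures. In whole buds, a lower level of a transcript can come from fewer cells of a type or from less RNA per cell, and these cannot be told apart here.

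The 3 B3 libraries held 25925136, 34266614 and 27661030 counts on genes in plants 1, 2 and 3, against 41451418, 34460096 and 34855543 in the B2 libraries of the same plants. Every B3 library was thus shallower than every B2 library, and fewer genes had a count at B3 (28543 to 29549 per library) than at B2 (29580 to 31476). For both measures the exact permutation test over the 6 libraries gave p = 0.1, the smallest that 3 against 3 allow. The part of depth in the number of detected genes was not tested. Plant 2 stood apart at both stages. Its 50 most abundant genes took 22.8% of the counts at B3 and 15.6% at B2, where plants 1 and 3 had 11.2% and 9.95% at B3 and 9.02% and 9.15% at B2. This share was higher at B3 in all 3 plants, by 3.37 percentage points on average (exact permutation test over the 6 libraries, p = 0.5, two-sided), and without the B3 library of plant 2 the difference of the stage means was -0.718. The TMM factors of plant 2, which scale a library for its composition, were 0.497 at B3 and 0.664 at B2, against 0.946 to 1.06 in the other 4 libraries.

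Of the annotated genes, several of xyloglucan metabolism stood far higher at B3 than at B2, among them the abundant *RCORA41780* with a log2 change of 4.11. Most of the listed genes of pollen exine formation were low at both stages. Levels are given as CPM, which is the read count scaled to a fixed total by the TMM-adjusted library size. Expression was tested for 27837 genes in edgeR's quasi-likelihood F-test, with the false discovery rate (FDR, Benjamini-Hochberg) over all of them. At FDR 0.01, 5 genes rose at B3 (0.018% of the genes tested) and 3 fell (0.0108%), together 0.0287%. At FDR 0.05 the late step called 1205 genes (4.33%), of which 458 were higher at B3 (1.65%) and 747 lower (2.68%). Before adjustment, 5894 genes (21.2%) had p under 0.05. Over all genes tested the changes were nearly balanced, with 50.5% positive. The split of the calls moved with the processing. At FDR 0.05 it was 195 higher and 954 lower with library totals in place of TMM, and 21 higher and 6 lower in the 9 *C. linearis* libraries alone. At FDR 0.01 limma-voom called 31 higher and 7 lower. DESeq2's Wald test, the kind of test the study used, called 1500 genes at FDR 0.01, 598 higher and 902 lower. These included 1153 of the 1205 genes and all 8 of the genes at FDR 0.01. The main test, from which the 1205 genes followed below come, did not use the pairing by plant. A block for plant, fitted in edgeR, left 0 genes past FDR 0.01 and 546 past FDR 0.05, with 248 of them higher and 298 lower.

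**Figure D1:**
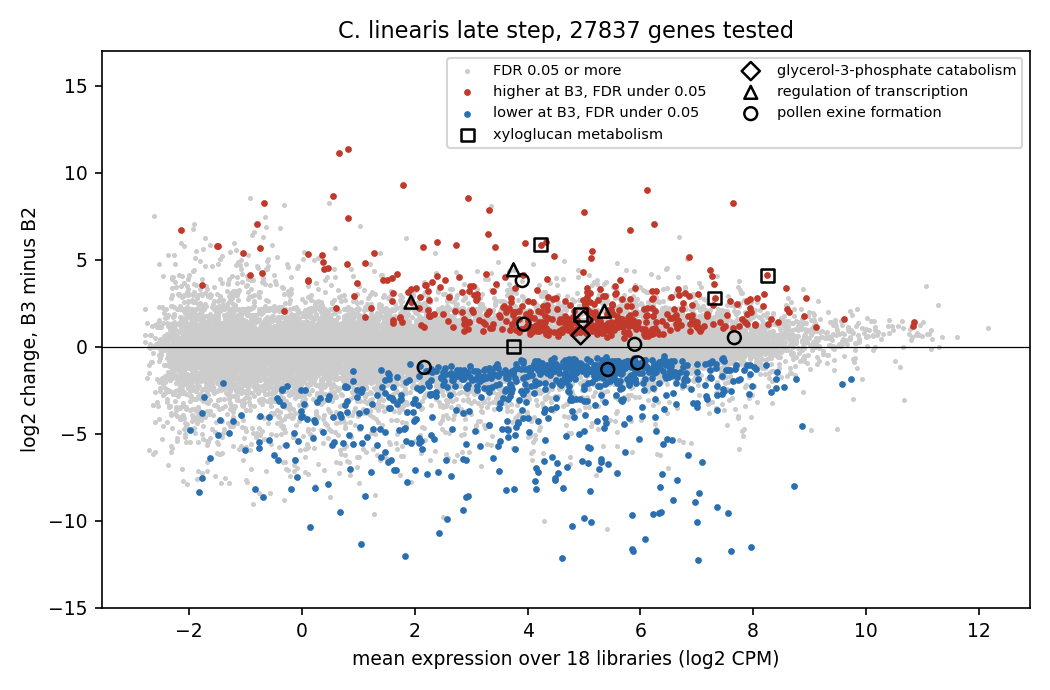
Each point is a gene, with its mean expression over the 18 libraries on the x axis (log2 CPM) and its fitted log2 change, B3 minus B2 in C. linearis, on the y axis. Red and blue points are the 458 genes higher and the 747 genes lower at B3 at FDR 0.05, and open symbols mark the annotated genes. The xyloglucan genes lie at or above 0 and the exine genes on both sides of it.

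The counts of calls depended on single libraries. When the B3 library of plant 1 was left out, 1 gene passed FDR 0.05, and leaving out its B2 library gave 25. The count was 393 without the B3 library of plant 2, 313 (165 higher, 148 lower) without that of plant 3, and 245 when B2 of plant 2 was left out. It was 2469 without the B2 library of plant 3, and these held 1081 of the 1205 genes. Without all libraries of a plant the count was 2 for plant 1, 0 for plant 2 and 1252 for plant 3. Libraries outside the late step, which entered through the shared fit, moved the count less, with 780 when B1 of *C. linearis* plant 2 was left out and 659 to 802 without any of 5 single *C. rattanii* libraries (B1 of plants 1 and 2, B2 of plant 1, B3 of plants 1 and 2). At FDR 0.01 the count was 542 without the B2 library of plant 3, 313 when B1 of *C. linearis* plant 1 was left out, and 0 to 25 without any other single library.

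**Figure D2:**
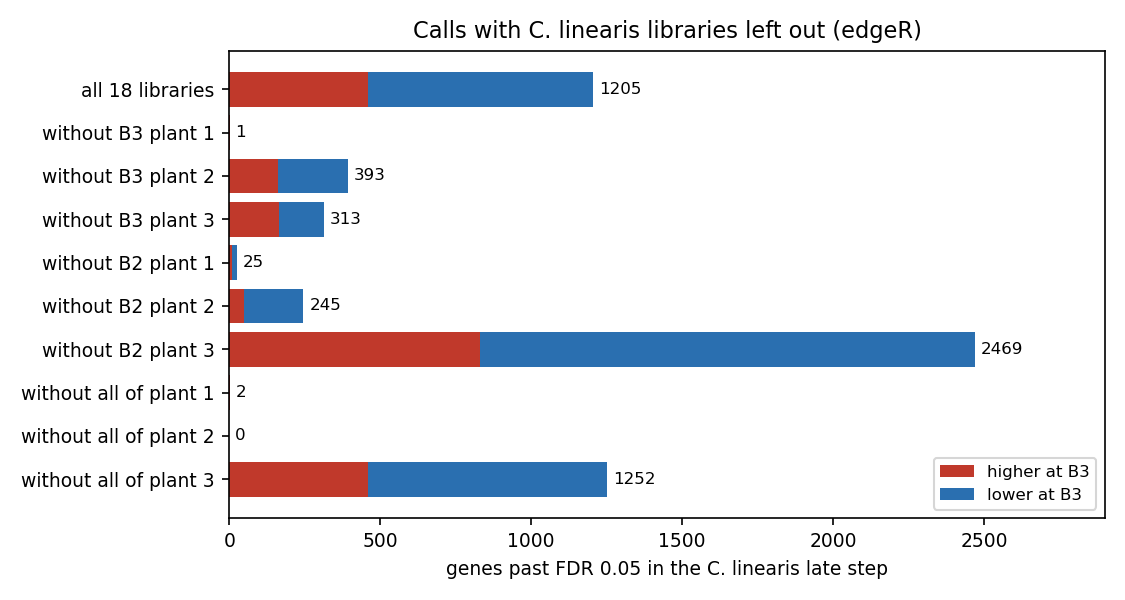
Bars give the number of genes past FDR 0.05 in the C. linearis late step (x axis) when the C. linearis library or plant named on the y axis was left out, split into genes higher at B3 (red) and lower at B3 (blue). The full set gave 1205 genes, and the counts ran between 0 (all libraries of plant 2 left out) and 2469 (B2 of plant 3 left out).

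The count table does not pair its identifiers with gene names. Apart from genes that the study annotates, only 2 genes in each direction are therefore given. They were those with the largest changes past FDR 0.01 among genes with 1 sign in all 3 plants and at least 10 counts in each of the 6 libraries, and, as only 1 fall met this, the fall of next lowest p. The lowest FDR over all genes was 0.00476, below that of the genes named. *RCORA84907* stood at 31.2, 24.7 and 16.4 CPM at B3 in plants 1 to 3, against 0.915, 0.962 and 2.52 CPM at B2. All B3 libraries lay well above all B2 libraries, and the log2 change was 4.03 (standard error 0.48, edgeR FDR 0.00531, and 0.0281 with the plant as a block). *RCORA76661* was at 23.0, 23.8 and 11.6 CPM at B3, against 1.46, 2.06 and 1.61 CPM at B2, a log2 change of 3.51 (standard error 0.43, edgeR FDR 0.00531, and 0.0281 with the block). *RCORA18004* fell at B3 in every plant and with little spread, to 65.4, 55.3 and 61.8 CPM, against 174, 159 and 145 CPM at B2. Its log2 change was -1.39 (standard error 0.17, edgeR FDR 0.00531, and 0.0181 with the block). *RCORA43644* was nearly lost, with 0.653, 1.94 and 1.12 CPM at B3, against 60.8, 151 and 32.9 CPM at B2. Its log2 change of -6.05 (standard error 0.86) had an edgeR FDR of 0.0127, and so was called at FDR 0.05 but not at 0.01. *RCORA84907*, *RCORA76661* and *RCORA18004* kept their direction in every alternative tried, but their FDR stayed under 0.01 in only 8, 8 and 4 of 18 alternatives. Their highest FDR over these was 0.0971, 0.098 and 0.109.

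Genes of xyloglucan metabolism, the remodeling of the cell wall hemicellulose that accompanies growth, were represented by 5 genes that the study singled out, not by the whole category. Of these 5, 3 rose at FDR 0.05, where 1.65% of all genes tested did, 0 fell, and 0 passed FDR 0.01. With the plant as a block, *RCORA205395* did not pass FDR 0.05 and the other 2 did. The median log2 change of the list was 2.80, beside 0.01 over all genes tested. The genes of this list and of those below were picked by the study for a species by stage interaction in the same libraries, so they are not independent evidence of a direction. *RCORA41780*, the most abundant of them, stood at 1271, 841 and 847 CPM at B3, against 57.4, 40.1 and 74.2 CPM at B2. The B3 mean was 986 ± 247 and the B2 mean 57.2 ± 17 (SD, n = 3), 17.2 times apart, and the groups were far from overlapping. The log2 change was 4.11 (standard error 0.60, edgeR FDR 0.0133), and the FDR ran from 4.68e-11 in DESeq2 to 0.123 over 18 alternatives. *RCORA191130* followed the same course, with 658, 408 and 475 CPM at B3, against 62.3, 54.1 and 105 CPM at B2. Its log2 change was 2.80 (standard error 0.57, edgeR FDR 0.022, from 4.21e-05 in DESeq2 to 0.154 over the alternatives).

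*RCORA205395* stood at 156, 53.7 and 11.5 CPM at B3, against 2.2, 1.09 and 0.465 CPM at B2. Its log2 change of 5.87 (standard error 1.37, edgeR FDR 0.0321, 0.0621 with the block, and from 6.32e-06 in DESeq2 to 0.202 over the alternatives) was the largest of the 5, although the B3 level of plant 3 was far below that of plant 1. The other xyloglucan genes did not pass either threshold. *RCORA202024* was at 187, 104 and 14.5 CPM at B3, against 30.4, 40.1 and 13.7 CPM at B2, so that plants 1 and 2 were higher at B3 and plant 3 was nearly level (log2 change 1.86, standard error 0.81, edgeR FDR 0.205). *RCORA38638* was highest in plant 2 at both stages, with 8.52, 102 and 1.57 CPM at B3, against 4.95, 88.4 and 16.2 CPM at B2. At B1 plant 2 was instead the lowest (10.3, 0.217 and 0.797 CPM in plants 1 to 3). The late log2 change of *RCORA38638* was 0.03 (standard error 1.49, edgeR FDR 1), and its sign changed with the processing.

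**Figure D3:**
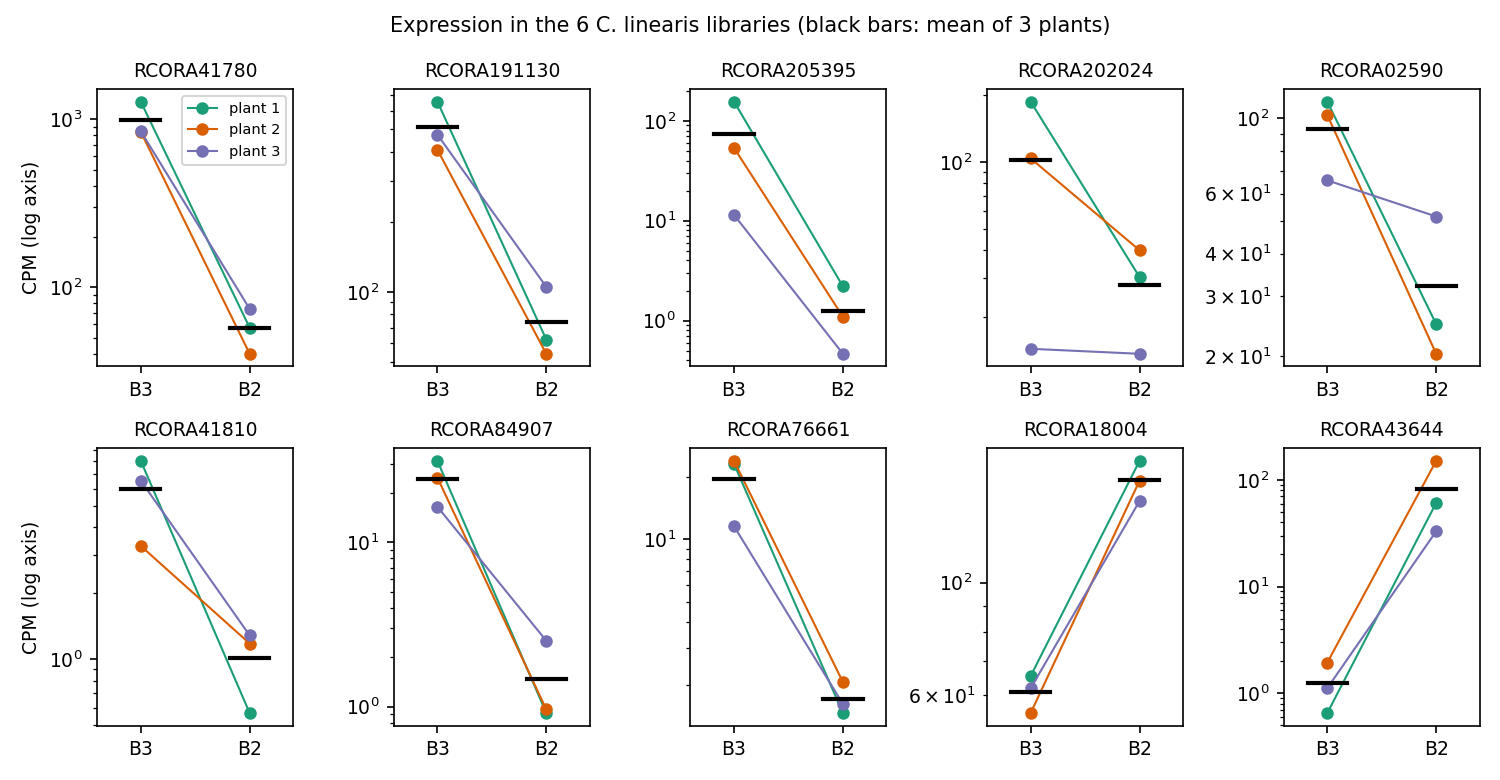
Each panel shows a gene's expression in the 6 C. linearis libraries, B3 left and B2 right, in CPM on a log axis, with a colored line for each plant and a black bar for the mean of 3 plants. All 3 plants are higher at B3 in every panel but those of RCORA18004 and RCORA43644, where all 3 are lower, and plant 3 is nearly level for RCORA202024. The panels are a selection of the named genes. RCORA84907, RCORA76661, RCORA18004 and RCORA43644 were picked for having 1 sign in all plants. Listed genes not shown include RCORA38638 and RCORA68085, which were lower at B3 in plant 3, and the exine genes.

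The pair of genes annotated with glycerol-3-phosphate catabolism, which by the study's account putatively encode glycerol-3-phosphate dehydrogenase, an enzyme that links sugar breakdown with lipid synthesis, had positive changes that did not pass FDR 0.05. *RCORA02590* was at 112, 102 and 65.7 CPM at B3, against 24.9, 20.3 and 51.4 CPM at B2. Every B3 library lay above every B2 library, but the gap was narrow in plant 3 (log2 change 1.53, standard error 0.46, edgeR FDR 0.0726, from 0.0166 in DESeq2 to 0.389 over the alternatives). *RCORA68085* was at 48.2, 51.9 and 34.8 CPM at B3, against 20.4, 28.4 and 36.6 CPM at B2, and the groups overlapped through plant 3 (log2 change 0.66, standard error 0.28, edgeR FDR 0.193).

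For regulation of transcription only 3 genes could be followed, those that the study names for a further annotation, which are a small selection of that category. Of the 3, 1 rose at FDR 0.05, beside 1.65% of all genes tested. This was *RCORA41810*, with 8.04, 3.29 and 6.53 CPM at B3, against 0.569, 1.18 and 1.29 CPM at B2 (log2 change 2.56, standard error 0.42, edgeR FDR 0.0149, from 1.21e-07 in DESeq2 to 0.133 over the alternatives). *RCORA61416* was at 43.2, 265 and 36.1 CPM at B3, against 20.9, 47.0 and 15.8 CPM at B2. It was higher at B3 in each plant, but most of the difference in means came from plant 2, and the groups overlapped (log2 change 2.04, standard error 0.78, edgeR FDR 0.147). *RCORA141603*, which had 69.8 and 169 CPM in plants 2 and 3 at B1, was all but absent from the late step, with 1, 0 and 5 counts at B3 and 0 counts in each B2 library.

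Most genes of pollen exine formation, the sculpted outer wall of the pollen grain, were at low levels at both B3 and B2, after high B1 levels in plants 2 and 3. At B2, *RCORA186672* had a mean of 14.0 CPM, above the median of 9.74 CPM over all genes tested. Of the 8 genes that the study singled out, 7 were tested for the late step. At FDR 0.05, 0 rose and 0 fell (1 had an unadjusted p under 0.05), and 4 of the 7 had a positive change, with a median of 0.14. DESeq2's Wald test called 1 of them at FDR 0.01. *RCORA09826*, an ortholog of the *Arabidopsis thaliana* gene *LESS ADHESIVE POLLEN5*, whose chalcone synthase-like enzyme acts in exine formation, stood at 3.06, 2.53 and 3.35 CPM at B3, against 2.99, 2.71 and 2.43 CPM at B2. At B1 the same gene had 3.22, 353 and 662 CPM. *RCORA03278*, the ortholog of the related *LESS ADHESIVE POLLEN6*, was at 11.2, 10.6 and 6.70 CPM at B3, against 10.2, 10.3 and 7.22 CPM at B2. For both genes the CPM ranges of B3 and B2 overlapped, with log2 changes of 0.14 ± 0.94 and 0.03 ± 0.87 (standard errors, edgeR FDR 0.97 and 1). These standard errors come from the fit of all 18 libraries, B1 included, and are not the spread among plants at B3 and B2. An edgeR fit of only the 6 libraries of the late step gave an FDR of 0.875 and 0.979.

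*RCORA175575* was higher at B3 in all 3 plants, although it did not pass FDR 0.05 in edgeR. It stood at 7.14, 1.59 and 10.5 CPM at B3, against 0.223, 0.262 and 0.875 CPM at B2. The groups did not overlap, and the log2 change was 3.8 (standard error 1.25, edgeR FDR 0.0962, from 0.00694 in DESeq2 to 0.509 over the alternatives). At B1 it had been at 0.433, 76.0 and 106 CPM. *RCORA186672*, also annotated with sporopollenin synthesis, was at 4.98, 6.58 and 5.45 CPM at B3, against 12.1, 22.6 and 7.49 CPM at B2. It was lower in each plant without overlap (log2 change -1.31, standard error 0.72, edgeR FDR 0.326, and 0.22 in the 6 libraries alone). *RCORA14962* was at 0.816 to 1.29 CPM at B3 and 1.34 to 2.97 CPM at B2, and *RCORA171666* at 1.06 to 7.09 and 1.84 to 3.42 CPM. *RCORA36422*, *RCORA201861* and *RCORA205649* were at or below 1.61 CPM in all 6 libraries, and *RCORA205649* had 1 count over the 3 B3 libraries and 1 over the 3 B2 libraries.

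Among the genes called at FDR 0.05, the 458 higher at B3 had a median log2 change of 1.63 and the 747 lower at B3 one of -1.94, beside 0.01 over all genes tested. A change beyond 4 on the log2 scale was found for 51 of the genes higher at B3 (11.1%) and 180 of those lower at B3 (24.1%), against 2.40% of all genes tested. The 3 B3 libraries lay above all 3 B2 libraries for 451 of the 458 genes, and below them for 706 of the 747. Among all genes tested, B3 lay above B2 without overlap for 11.6% and below it for 10.6%, and in *C. rattanii* for 6.61% and 6.54%. These members were called from the same libraries, so the separation describes them and does not support the calls. In the most complete changes, 11 genes had at least 100 counts in each B2 library and under 10 in each B3 library, and 2 genes showed the reverse. In *C. rattanii* the same count was 1 lost and 0 gained. The cutoffs are on raw counts, and every *C. linearis* B3 library was shallower than every B2 library. The part of depth in these numbers was not tested. Of the 11 genes lost at B3, 10 also had at least 100 counts in some *C. linearis* library at B1. The same share among all genes with at least 100 counts in each B2 library was not taken. The 10 genes therefore cannot be read as showing a trait of the lost genes.

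Calls were spread over the range of expression and were more frequent among abundant genes. Genes were ranked by their mean over the 18 libraries and divided into 4 bins of equal size. In the bin with the highest means, 203 genes were higher and 270 lower at B3 (6.80% called), and in the lowest bin 26 were higher and 76 lower (1.47%). The calls in the lowest bin had a median log2 change of 5.07 for genes higher at B3 and -4.18 for genes lower, against 1.46 and -1.51 in the highest bin. Of the 50 most abundant genes over the 6 libraries, 2 were higher at B3 and 0 lower at FDR 0.05, and 0 passed FDR 0.01.

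**Figure D4:**
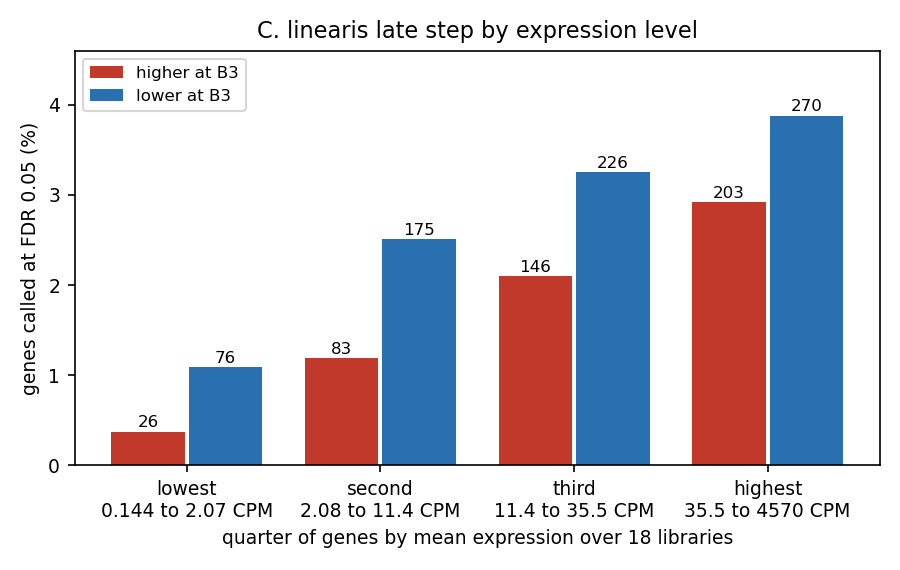
Genes tested were divided into 4 bins of equal size by their mean expression over the 18 libraries (x axis, with the range in CPM), and the bars show the percent of each bin called at FDR 0.05 as higher (red) or lower (blue) at B3, with the number of genes above each bar. The called share was 1.47% in the lowest bin and 6.80% in the highest, with more genes lower than higher in each.

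The 3 plants shared the late step only in part. The log2 change of each gene within a plant, over the 27837 genes tested, correlated between plants with r = 0.648 for plants 1 and 2, 0.408 for plants 1 and 3, and 0.415 for plants 2 and 3. These correlations are across genes, which are not independent replicates, and serve as a description. The same values in *C. rattanii* were -0.0693, 0.321 and -0.241. The change was positive in all 3 *C. linearis* plants for 25.1% of the genes and negative in all 3 for 23.9%. Plant 1 moved most, with a median absolute log2 change of 0.670, against 0.584 in plant 2 and 0.435 in plant 3. In plant 3 the larger changes were mostly losses, with 914 genes lower and 184 higher at B3 by more than 3 on the log2 scale. In plant 1 the same counts were 975 and 855, and in plant 2 374 and 372.

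Within a stage, some sets of genes were far higher in 1 plant than in the others. At B3, 324 genes were more than 8 times higher in plant 2 than in either other plant, with at least 100 counts there, and took 3.82% of its counts, against 0.637% and 0.235% in plants 1 and 3. At B2, whose values had no part in choosing them, these genes took 6.20%, 11.0% and 3.15% of the counts in plants 1 to 3. Plants 1 and 3 thus also held these genes at B2, and their low B3 share in those plants was fixed by the choice. At B2, 479 genes were more than 8 times higher in plant 3 than in either other plant and took 5.24% of its counts, against 0.0671% and 0.0470% in plants 1 and 2. At B3 the 479 genes took 1.12% of the counts in plant 3 and 0.379% and 0.140% in plants 1 and 2. The part of either group in the late step was not tested, beyond the counts without these libraries given above.

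Set against the late step of *C. rattanii*, which shares no library with it, the *C. linearis* late step had more calls. In *C. rattanii* 0 of the 27837 genes passed FDR 0.01 or 0.05 in edgeR's quasi-likelihood test, with 1859 (6.68%) below 0.05 before adjustment, while DESeq2's Wald test called 98 genes at FDR 0.01. Over all genes the median absolute fitted log2 change, taken between group means, was 0.51 in *C. linearis*, against 0.31 for its sister species. Within single plants the sizes overlapped. The median absolute change was 0.3735, 0.5264 and 0.5295 in *C. rattanii* plants 1 to 3, against 0.67, 0.5837 and 0.4349 in *C. linearis*. The spread between plants was also wider in *C. linearis*, with a median SD of log2 CPM of 0.446 at B3 and 0.500 at B2, against 0.292 and 0.429 in *C. rattanii*, and the part of this spread in the sizes was not tested. The difference itself, the late step of *C. linearis* less that of *C. rattanii*, passed FDR 0.01 for 0 genes and FDR 0.05 for 14 genes (0.0503%), 11 of them positive (0.0395%) and 3 negative (0.0108%). Before adjustment 3880 genes (13.9%) had p under 0.05, and DESeq2's Wald test called 418 at FDR 0.01. Blocking on plant left 1 gene, a negative one, at FDR 0.05 in edgeR. Single libraries moved this count too. It was 285 without the *C. linearis* B2 library of plant 3, 72 when its B1 library of plant 1 was left out and 34 for B3 of plant 3. Leaving out *C. rattanii* B2 of plant 2 gave 127 and B1 of plant 3 gave 52, the *C. linearis* B1 library of plant 3 gave 16, and any other single library gave 0 to 4.

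The genes called in *C. linearis* were followed into the *C. rattanii* libraries, which had no part in that contrast. These libraries did enter the shared fit that set each gene's spread, so the follow-up is not independent of the calls. At FDR 0.05 the 9 *C. linearis* libraries alone gave 27 calls. Of the 747 genes lower at B3 in *C. linearis*, 457 (61.2%) also had a negative change in *C. rattanii*, where 50.4% of all genes did, and the median change was -0.10. An unadjusted p under 0.05 was reached by 32 of them (4.28%) in the same direction and by 6 (0.803%) in the opposite one, where 3.09% of all genes tested reached it as lower and 3.59% as higher. Of the 458 genes higher at B3, 235 (51.3%) had a positive change in *C. rattanii*, beside 48.4% of all genes, and the median was 0.01. Here 26 (5.68%) reached an unadjusted p under 0.05 in the same direction and 39 (8.52%) in the opposite one, beside the same 3.59% and 3.09% of all genes.

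The levels of the same genes were also set side by side. The median over the 747 genes was 7.59 CPM at B3 in *C. linearis*, against 43.7 CPM at B2, and it was 9.04 and 11.0 CPM at B3 and B2 in *C. rattanii*. Distances between group means were taken in log2 of CPM plus 0.1. For 617 of the 747 genes (82.6%) the B2 mean of *C. rattanii* was nearer to the B3 mean of *C. linearis* than to its B2 mean. Among all genes tested this held for 55.8%. The B3 mean of *C. rattanii* gave nearly the same, 626 genes (83.8%), beside 56.4% of all genes tested. The median over the 458 genes was 50.2 CPM at B3 in *C. linearis*, against 16.0 CPM at B2, and 29.6 and 29.7 CPM at B3 and B2 in *C. rattanii*, and 266 of them (58.1%) were nearer to the B3 mean. With the B3 mean of *C. rattanii* it was 253 of the 458 (55.2%). The genes were chosen for a distance between B3 and B2 in *C. linearis*, which pushes those means apart. The nearness uses the same *C. linearis* values, so it is not independent of that choice. *RCORA41780* is an example of a gene that *C. rattanii* expressed at an intermediate level at both stages, with 211, 535 and 236 CPM at B3 and 289, 156 and 510 CPM at B2. The median late change of the 5 xyloglucan genes was 2.80 in *C. linearis*, against -0.71 in the sister species, and that of the glycerol-3-phosphate pair was 1.1 against -1.1. However, 0 of the listed genes passed FDR 0.05 for the difference in edgeR. An unadjusted edgeR p under 0.05 was reached by 4 of the 5 xyloglucan genes and both of the pair, beside 13.9% of all genes tested. The study picked the listed genes for a species by stage interaction in the same libraries, so tests of the difference partly repeat that choice. In DESeq2's Wald test the difference had an FDR of 4.25e-05 for *RCORA41780*, 0.000148 for *RCORA205395*, 0.0265 for *RCORA191130*, 0.000621 for *RCORA02590* and 5.77e-05 for *RCORA41810*, and in edgeR with the block their FDR ran from 0.173 to 0.23. *RCORA02590* had 5.58, 10.5 and 5.76 CPM at B3 in *C. rattanii*, against 22.8, 11.5 and 30.9 CPM at B2, lower in each plant, and its difference was 3.11 (standard error 0.65, edgeR FDR 0.0863). *RCORA205395* had 4.53, 16.9 and 1.95 CPM at B3 in *C. rattanii*, against 17.7, 3.05 and 56.7 CPM at B2, and the difference between the species in its late step was 7.59 (standard error 1.76, edgeR FDR 0.104).

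**Figure D5:**
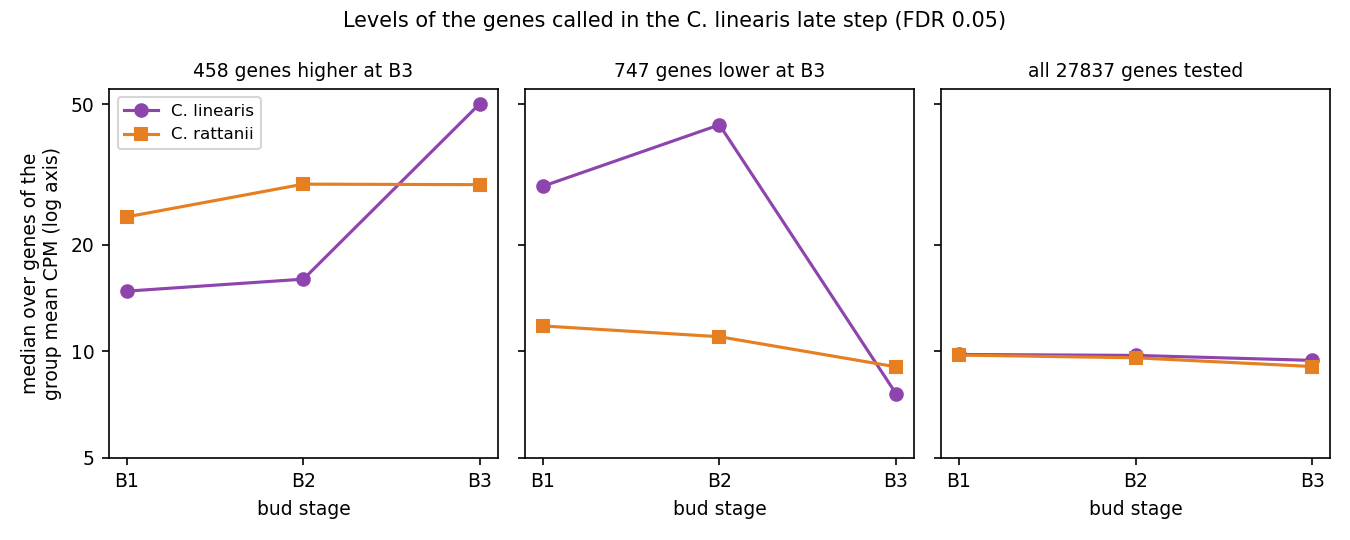
For the 458 genes higher and the 747 genes lower at B3 in the C. linearis late step (FDR 0.05) and for all 27837 genes tested, points give the median over genes of the group mean CPM (log axis) at stages B1, B2 and B3 in each species. The genes lower at B3 stand at 43.7 CPM at B2 and 7.59 CPM at B3 in C. linearis, while C. rattanii stays between 9.04 and 11.8 CPM.

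The early step of *C. linearis* (B2 minus B1) shares the B2 libraries with the late step, so both are only given side by side. It called 4 genes at FDR 0.01 (0.0144%), 1 higher at B2 (0.00359%) and 3 lower (0.0108%). At FDR 0.05 it called 170 (0.611%), 16 higher (0.0575%) and 154 lower (0.553%), and 19% of genes had p under 0.05 before adjustment. The median absolute log2 change was nearly equal, 0.51 in the late step and 0.52 in the early step. Among the listed genes, *RCORA41780* changed by 4.11 in the late step and by 0.61 in the early step (edgeR FDR 0.0133 and 0.525), and *RCORA09826* by 0.14 and -6.96 (edgeR FDR 0.97 and 0.0301).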

How the data were processed

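The authors deposited whole-number read counts for each gene. By the study's methods, all reads were aligned to the *C. rattanii* genome with STAR and assigned to gene models with featureCounts, without normalization. For strand and multi-mapping the settings were not found in the methods or labels, so near-identical copies and overlapping genes are uncertain. Species, stage and plant were taken from sample titles (the organism label names *C. rattanii* throughout), and 2 columns that matched no single sample were not used. Of 46127 genes, 27837 passed filterByExpr on the 6 groups in edgeR 4.0.16 (R 4.3.3). Counts were TMM-normalized and a quasi-likelihood model with robust moderation was fitted on 6 group means, and the contrast was B3 minus B2. Standard errors restate the F-test. Within-plant log2 CPM used a prior count of 2. DESeq2 1.42.0 and limma 3.58.1 were alternatives, as were other scalings, filters, subsets and a plant block. Residuals of same-plant B3 and B2 libraries correlated with r = 0.144, 0.641 and 0.496, and the labels pair them by plant. Pairs of libraries within a stage differed by more than sampling noise (chi-square per degree of freedom 121 to 609). Depth was 25925136 to 41451418 counts per library. The steps were tested on simulated data.

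Genes were named if the study annotates them (identifiers of 3 exine genes, *RCORA171666*, *RCORA175575* and *RCORA201861*, and of the xyloglucan and glycerol-3-phosphate genes follow an earlier account of these data, which read them from a picture, and were not checked against a text source), together with the 2 largest rises and falls past FDR 0.01 that had 1 sign in all plants and at least 10 counts in each of the 6 libraries, or else those of lowest p. That condition was met by only 1 fall. The members and lists were chosen with earlier results of these data known. No markers of other cell types could be fixed, since the identifiers carry no names.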

Additional observations from a re-analysis of the deposited data

Results flagged for a closer look

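The late step differed between *C. linearis* and *C. rattanii* at FDR 0.05 in edgeR's test of the interaction for 14 genes, and 0 passed FDR 0.01 (418 did in DESeq2's Wald test). Of these, 3 were among the genes named here. They were picked for a large late change in *C. linearis* with 1 sign in all its plants. The difference contains that same change, so its size is not independent of the choice. *RCORA84907* had a difference of 5.58 on the log2 scale (standard error 0.64, FDR 0.0102), the late change being 4.03 in *C. linearis* against -1.54 in *C. rattanii*. In *C. rattanii* it was at 9.36, 12.0 and 9.64 CPM at B3, against 20.1, 35.2 and 35.0 CPM at B2, so it was lower at B3 in every *C. rattanii* plant and higher at B3 in every *C. linearis* plant. *RCORA76661* had a difference of 3.89 (standard error 0.58, FDR 0.0349), from changes of 3.51 and -0.38. *RCORA18004* had a difference of -1.80 (standard error 0.24, FDR 0.0319), from changes of -1.39 and 0.42. With the plant as a block none of the 3 differences passed FDR 0.05, with an FDR of 0.0801 for *RCORA84907*, 0.169 for *RCORA76661* and 0.0801 for *RCORA18004*. Groups of 3 libraries are too small for a test of single outlying samples, and none was made.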

How the results depend on the processing

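The late-step counts at FDR 0.01 and at FDR 0.05 depended on most choices. They were 8 and 1205 in the full fit, and 8 and 1142 with DESeq2's size factors in edgeR. Limma-voom gave 38 and 881, and library totals alone 37 and 1149. The replicate block (plant within species) gave 0 and 546, DESeq2's Wald test 1500 and 3003, and a fit without a filter on low counts 4 and 716. The 9 *C. linearis* libraries alone gave 0 and 27, and only the 6 libraries compared gave 0 and 0. Those 6 with the block, an alternative chosen after seeing the data, gave 0 and 71. Leaving out single libraries or plants gave 0 to 542 at FDR 0.01 and 0 to 2469 at FDR 0.05. The interaction gave 0 and 14, against 0 and 1 with the block, 418 and 1042 in DESeq2, 2 and 6 in limma-voom, 1 at FDR 0.01 with DESeq2's size factors, 2 at FDR 0.05 with library totals, and 0 at FDR 0.05 in the stages compared alone. Leave-outs gave 0 to 5 and 0 to 285. For the *C. linearis* early step the count at FDR 0.01 was 4, 170 at FDR 0.05, 9 with the block, 704 in DESeq2, 43 in limma-voom and 0 with DESeq2's size factors, with library totals, without a filter, in the 9 libraries and in the stages compared, and leave-outs gave 0 to 369. The *C. rattanii* late step gave 98 in DESeq2 and otherwise 0. The median absolute late change ran from 0.488 to 0.635 over the leave-outs. The difference of the stage means in the top-50 share ran from -0.718 to 5.72 when single libraries were left out, which breaks the pairing by plant. Without plant 3 as a whole the counts were 70 for the late step, 3 (FDR 0.01) and 154 (FDR 0.05) for the interaction and 31 for the early step. The causes were not tested, except that smaller fits hold fewer samples.

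Sign changes were found only for genes whose change was far from the threshold. *RCORA38638* (0.03) was -0.962 with the block, -0.896 in limma-voom, -0.414 with library totals and -0.614 in the 6 libraries with the block, and between -2.89 and 1.74 over all alternatives. Without plant 1 as a whole it was -0.0142, and without plant 2 -1.06. *RCORA03278* was -0.104 with library totals and -0.0234 without plant 1, and -0.117 to 0.22 over all alternatives, *RCORA36422* -3.74 to 0.582, *RCORA171666* -0.655 to 0.913 (-0.237 without plant 3) and *RCORA09826* -0.0056 to 0.25. The median late change over all genes was 0.00863 with TMM and -0.0801 with library totals.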
